A study of Mus musculus with 3 samples.

Results

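The SLAM family was followed in mouse natural killer (NK) cells as 7 genes, chosen by their symbols from the 25906 genes of the count matrices. They comprise 4 receptors (Cd48, Ly9, Slamf6 and Slamf7) and the 3 adaptors of the SAP type (Sh2d1a, Sh2d1b1 and Sh2d1b2), and all 7 were found in the files. Viable cells positive for NK1.1 and NKp46 were isolated by sorting from lung and blood of wild-type female mice aged 9 weeks. The mice were naive or had received 100000 PyMT mammary tumor cells intravenously 6 h or 14 days earlier. PyMT cells derive from a mammary tumor driven by the polyomavirus middle T antigen, and they form metastases in the lung. At each time point, cells of both tissues were labelled with hashtag antibodies (B0304 read as lung and B0306 as blood, in the order in which the study names tissues and tags) and pooled in 1 droplet library. The experiment used several mice per group, and the tags do not tell the cells of 1 mouse from those of another.

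SLAM receptors are surface proteins of leukocytes that mostly bind themselves on neighbouring cells. CD48 has no signalling tail of its own and is the ligand of CD244 and, in mice, of CD2. The tails of Ly9, Slamf6 and Slamf7 carry tyrosine motifs. SAP, the product of Sh2d1a, docks onto such motifs in several, though not all, SLAM receptors and brings in the kinase Fyn. EAT-2, the product of Sh2d1b1, also docks onto such motifs and couples to other effectors. With these adaptors the receptors tend to activate NK cells, and without them the same tails can recruit inhibitory phosphatases. Mice carry a second EAT-2 gene, Sh2d1b2, whose product is also called ERT.

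After the filter on cells, 21113 cells fell into 6 groups of 2069 (14-day blood) to 4680 cells (6 h lung), with 16936897 to 35922737 unique molecular identifiers (UMIs) per group and a median of 5909.5 to 7524 UMIs per cell. Between 2.08% and 4.08% of the kept barcodes of a library had no clear tag and were left out, and any 2 libraries shared 7 to 16 kept barcodes. All 8 NK markers checked were above 0 in every group, at a summed 15600 CPM in 14-day lung and 19050 to 22980 CPM elsewhere, where CPM is the usual scaling of a gene's counts by the total UMIs of the group. Of the 7 T cell markers, all were above 0 in each group, at 189 to 295 CPM in sum. Trbc2 alone had 156 to 239 CPM. A UMI of Cd3d, Cd3e or Cd3g was found in 4.43% to 8.31% of cells, and a Cd3e UMI in 0.192% to 0.923%. Lineage depletion in the study included an antibody to CD3ε. The 4 B cell markers summed to at most 1.58 CPM and the 6 myeloid markers to 15.8 to 94.4 CPM, with Lyz2 reaching 89.3 CPM in 14-day blood from 0.435% of its cells. The 5 ILC1 markers summed to 25.9 to 37.1 CPM in the naive and 6 h groups and to 70.3 and 70.2 CPM in 14-day lung and blood. Erythroid and platelet markers were at most 0.334 CPM in sum except in 14-day lung, where they reached 82.2 CPM and 0.196% of cells carried them. The 5 epithelial and tumor cell markers summed to 6.74 CPM in 14-day lung and to 0.498 to 1.48 CPM elsewhere. The 4 ILC2 markers summed to 124 to 180 CPM, nearly all of it Gata3 and Rora. Il1rl1 had at most 0.469 CPM and Il13 had no UMI in any group. The 4 endothelial markers summed to 49.6 to 84.9 CPM, nearly all of it Pecam1, which NK cells also express. Each time point had 1 library, so time and library cannot be told apart, and no test between time points or tissues was possible. All intervals in brackets are 95% intervals that cover counting error only and not the difference between mice. They are exact (Poisson for levels, binomial for shares and for ratios of counts), except those of differences between log2 changes. The latter use a normal approximation.

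Of the 7 genes, 6 lie on chromosome 1 of GRCm38 within 1.72 Mb, and Sh2d1a lies on chromosome X (GENCODE M21). Slamf7 (ENSMUSG00000038179, chromosome 1 from 171632403 to 171653035, minus strand) and Cd48 (ENSMUSG00000015355, 171682009 to 171705258, plus strand) point away from each other across 29.0 kb. Ly9 (ENSMUSG00000004707, 171588624 to 171607410, minus strand) lies within the span of the receptor gene Cd244a on the opposite strand, so its counts depend on the strand being read correctly. Slamf6 (ENSMUSG00000015314) spans 171917515 to 171953170 on the plus strand. Sh2d1b2 (ENSMUSG00000073494, 170232749 to 170253608) and Sh2d1b1 (ENSMUSG00000102418, 170277320 to 170286769) follow each other on the plus strand, 23.7 kb apart. Sh2d1a (ENSMUSG00000005696) spans 42502453 to 42529330 of chromosome X.

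Promoter sequences (250 bases before to 50 after the RefSeq start, GRCm38.p6) are shown for 2 pairs, because Cd48 and Slamf7 fell together in 14-day lung and because the EAT-2 genes are neighbours with very different counts. Of the 7 genes, 5 were matched in the RefSeq table used here, and Ly9 and Sh2d1a were not. The RefSeq start used for Slamf7 lies inside its GENCODE span, which on the minus strand starts at 171653035. The Slamf7 window is therefore not that of the GENCODE start. The sequences are written 5′ to 3′ on the gene's strand, and capitals mark matches on either strand to TCACACC (T-box), ACCACA (RUNX) or AGGAAG (ETS), the core letters of 3 families of transcription factors active in NK cells.
Cd48 (chr1:171681742-171682041, plus strand): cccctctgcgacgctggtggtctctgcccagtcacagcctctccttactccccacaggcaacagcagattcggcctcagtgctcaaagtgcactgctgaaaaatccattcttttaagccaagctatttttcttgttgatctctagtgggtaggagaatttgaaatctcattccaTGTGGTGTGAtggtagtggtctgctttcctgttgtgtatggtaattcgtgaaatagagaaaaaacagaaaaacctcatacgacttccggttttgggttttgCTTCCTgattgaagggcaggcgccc
Slamf7 (chr1:171648950-171649249, minus strand): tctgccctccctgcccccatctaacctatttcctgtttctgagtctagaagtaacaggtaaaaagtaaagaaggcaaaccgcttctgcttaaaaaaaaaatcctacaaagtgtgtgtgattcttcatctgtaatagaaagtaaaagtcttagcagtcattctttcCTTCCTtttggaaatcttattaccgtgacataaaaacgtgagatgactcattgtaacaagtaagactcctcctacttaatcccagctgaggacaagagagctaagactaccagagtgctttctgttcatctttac
Sh2d1b1 (chr1:170277068-170277367, plus strand): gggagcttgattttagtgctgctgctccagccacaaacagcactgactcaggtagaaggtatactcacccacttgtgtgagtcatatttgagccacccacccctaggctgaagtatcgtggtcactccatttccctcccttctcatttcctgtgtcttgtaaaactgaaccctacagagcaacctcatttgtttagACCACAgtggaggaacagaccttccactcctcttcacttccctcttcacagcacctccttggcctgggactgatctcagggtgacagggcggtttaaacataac
Sh2d1b2 (chr1:170232621-170232920, plus strand): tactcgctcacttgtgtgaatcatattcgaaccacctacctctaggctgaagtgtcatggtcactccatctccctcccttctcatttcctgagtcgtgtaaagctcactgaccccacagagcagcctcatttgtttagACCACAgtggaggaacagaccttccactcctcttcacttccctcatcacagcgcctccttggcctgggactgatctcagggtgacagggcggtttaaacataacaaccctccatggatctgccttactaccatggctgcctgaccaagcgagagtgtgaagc
The Cd48 window held 1 match to each of the 3 motifs, of which the T-box and RUNX matches overlap by 3 bases, and the Slamf7 window held only an ETS match. Both EAT-2 windows held 1 RUNX match, inside a run of 58 identical bases. Aligned end to end, 222 of the 362 columns of the EAT-2 pair were identical (61.3%). Both windows hold 300 bases, so the columns include gaps, and the shared stretch starts later in the Sh2d1b1 window. The share is thus not the identity of the bases set against each other. The Slamf6 window had none of the 3 motifs. Over all 32851 RefSeq promoter windows, 3.98% held the T-box, 16.8% the RUNX and 35.4% the ETS letters, so such matches describe the sequence and no more.

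Cd48, the ligand of CD244 and CD2, had its lowest level in 14-day lung. Its level was 353 CPM (346 to 361) in naive lung, 355 (349 to 361) in 6 h lung and 232 (226 to 237) in 14-day lung, against 425 (418 to 433), 409.5 (401 to 418) and 385 (376 to 394) in blood at the same times. The order from high to low was thus the 3 blood groups in time order, then 6 h and naive lung, which did not differ beyond counting error, and then 14-day lung. At a common depth of 3000 UMIs per cell, 63.7% of naive lung, 63.5% of 6 h lung and 48.5% of 14-day lung cells had a Cd48 UMI, and 70.3%, 69.2% and 67.1% of blood cells. Free RNA could give a Cd48 UMI to at most 10.2%, 5.87% and 1.18% of thinned cells in the 3 libraries. Without thinning, 75.5% to 92.6% of cells in a group had a UMI.

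Slamf7, a receptor that pairs with EAT-2 in NK cells, was also lowest in 14-day lung. It had 161 CPM (156 to 166) in naive lung, 169 (165 to 174) in 6 h lung and 107 (103 to 111) in 14-day lung. In blood it had 189 (184 to 194), 204 (198 to 210) and 188.5 (182 to 195) CPM, with naive and 14-day blood alike within counting error. The share of thinned cells with a UMI was 34.8%, 37.8% and 23.4% in lung and 38.2%, 42.0% and 40.7% in blood (54.3%, 61.0% and 42.2%, and 60.3%, 66.9% and 64.6% unthinned). Per Cd48 UMI there were 0.456 (0.438 to 0.474) Slamf7 UMIs in naive lung and 0.461 (0.442 to 0.482) in 14-day lung, with 0.445 to 0.499 in the other 4 groups.

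Ly9, a receptor that binds itself, was at 80.75 CPM (77.2 to 84.5) in naive lung, 77.7 (74.8 to 80.6) in 6 h lung and 53.6 (51.0 to 56.4) in 14-day lung. Blood cells had 101.1 (97.6 to 104.8), 96.0 (91.9 to 100.2) and 83.8 (79.5 to 88.3) CPM. Naive and 6 h values overlapped in each tissue, and naive lung and 14-day blood overlapped as well. Cells of 14-day lung were lowest, with 14.1% (13 to 15.3) of thinned cells positive against 19.6% to 24.3% in the other groups.

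Slamf6, a receptor of NK, T and B cells, was sparse. It had 9.97 CPM (8.73 to 11.3) in naive lung, 12.4 (11.2 to 13.6) in 6 h lung, 9.33 (8.24 to 10.5) in 14-day lung, and 11.6 (10.4 to 12.9), 13.04 (11.6 to 14.6) and 7.79 (6.52 to 9.24) in blood. Only 1.45% to 3.08% of thinned cells and 3.67% to 6.19% of unthinned cells had a UMI, at a limit for free RNA of at most 0.171% of thinned cells. Of the neighbours in the order of levels, none were separated beyond counting error. Some groups further apart in it were, such as 6 h and naive lung.

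**Figure D1:**
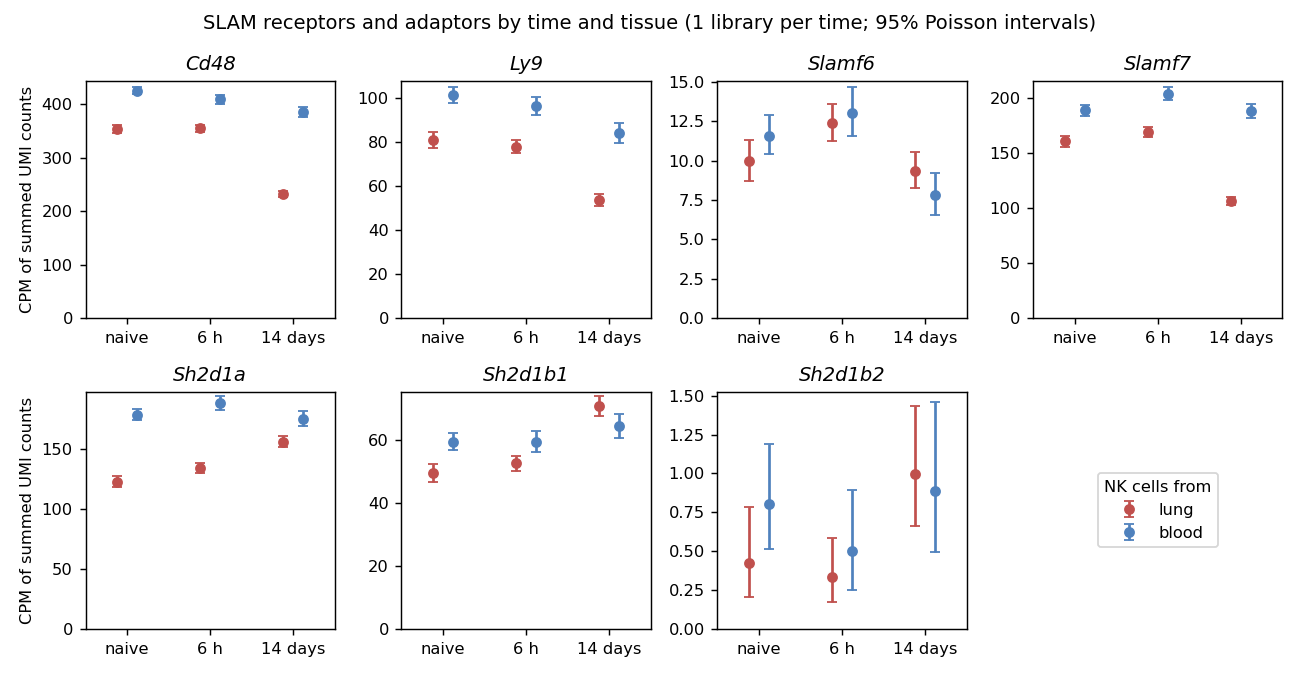
Levels of the 7 genes (CPM of summed UMI counts, vertical axes from 0) in NK cells from lung (red) and blood (blue) of the naive, 6 h and 14-day libraries, with exact 95% Poisson intervals as bars. Cd48, Ly9 and Slamf7 are lowest in 14-day lung, at 232, 53.6 and 107 CPM, while Sh2d1b1 is highest there, at 71.0 CPM.

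The adaptors had higher, not lower, levels in 14-day than in naive lung. Sh2d1a, which encodes SAP, had 122 CPM (118 to 127) in naive lung, 134 (130 to 138) at 6 h and 156 (151 to 160) at 14 days, with 178 (173 to 183), 188 (182 to 194) and 175 (169 to 181) CPM in blood. The lung was below blood at every time, and the gap was smallest at 14 days. Thinned cells with a UMI made up 29.2%, 31.1% and 35.4% of lung and 38.3%, 41.2% and 36.6% of blood cells, where free RNA could account for at most 3.03%.

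Sh2d1b1, the EAT-2 gene, had 49.6 CPM (46.8 to 52.5) in naive lung, 52.8 (50.4 to 55.2) in 6 h lung and 71.0 (67.9 to 74.2) in 14-day lung. Blood cells had 59.6 (56.8 to 62.4), 59.6 (56.4 to 62.9) and 64.6 (60.8 to 68.5) CPM. The 14-day lung was the highest group, followed by 14-day blood, whose interval overlapped with it narrowly. The share of thinned cells with a UMI was 13.8% in naive lung and 18.3% in 14-day lung, and 16.4% to 17.7% in blood.

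Sh2d1b2 was close to undetected, with 10, 12 and 28 UMIs in naive, 6 h and 14-day lung and 24, 11 and 15 in blood, or 0.334 to 0.994 CPM. The longest annotated transcripts of both EAT-2 genes are nearly equal in length (2542 bases for Sh2d1b2 and 2544 for Sh2d1b1), and Sh2d1b1 had 1094 to 2000 UMIs in the same groups. In the last 500 bases, where this 3′ assay reads, 7.2% of the 30-base words of either transcript also occurred in the other, and 18.7% over the whole transcript. Reads that lie wholly in shared sequence would match both genes. The length of the reads was not checked, so the share of such reads is not known here. How reads that match both genes were counted is not given in the sources used here. Its ratios rest on 10 to 28 UMIs a group and are not read further.

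At 6 h after injection, levels lay close to those of the naive mouse, Slamf6 in lung least so. Ratios were read for genes that reached 10 CPM in either group of the pair. None of the 6 such members passed a 1.5-fold ratio in lung, where 0.574% of the 8007 genes tested did in either direction, and none did in blood, where the share was 0.518% of 8114. In lung, log2 ratios of 6 h over naive were 0.01 (-0.03 to 0.05) for Cd48, -0.06 for Ly9, 0.07 for Slamf7, 0.13 for Sh2d1a and 0.09 for Sh2d1b1, and the median gene was at -0.07. Slamf6 had the largest of these values, 0.31 (0.08 to 0.54), and 0.17 (-0.06 to 0.40) in blood. Cells with a Cd3 UMI made up 4.43% of naive and 6.45% of 6 h lung cells. Their Slamf6 level was 19.9 and 32.5 CPM. Under the alternatives to the processing, the lung ratio of Slamf6 lay between 0.15 and 0.38. In blood, the other members lay between -0.08 (Ly9) and 0.11 (Slamf7).

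At 14 days, lung NK cells had lower levels of 3 receptors and higher values of the adaptors than those of the naive lung. Cd48, Ly9 and Slamf7 passed the 1.5-fold ratio downwards among the 5 members with enough counts, at log2 ratios of -0.61 (-0.65 to -0.56), -0.59 (-0.69 to -0.49) and -0.59 (-0.66 to -0.52). Over all 8108 genes tested, 10.9% passed downwards and 15.5% in either direction, and the median gene was at -0.19. These 3 ratios lie just past the threshold, at 0.656, 0.664 and 0.664 against 0.667, while Sh2d1b1 at 1.43 and Sh2d1a at 1.27 lay inside it. Sh2d1b1 was at 0.52 (0.41 to 0.62) and Sh2d1a at 0.35 (0.28 to 0.42) on the log2 scale, and Slamf6, below the minimum of 10 CPM, at -0.10 (-0.35 to 0.17). Relative to the median gene, 1 member passed upwards (Sh2d1b1, at 0.71) and none downwards (Cd48 at -0.42, Ly9 and Slamf7 at -0.40), where 7.7% of all genes passed upwards and 4.82% downwards. The signs of these 5 genes were the same on both scales. Without cells with a Lyz2 or Hbb-bs UMI the 3 receptors were at -0.61, -0.59 and -0.60 (Cd48, Ly9 and Slamf7), and without cells with a Cd3 UMI at -0.594, -0.558 and -0.5846, of which Cd48 alone was still past 1.5-fold (0.585 on the log2 scale). The ILC1 markers, which were also higher in 14-day lung, had about the same sum in 14-day blood, and their part in the result was not tested.

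In blood NK cells of the same library, none of the 6 members tested passed the 1.5-fold ratio at 14 days, where 3.95% of 8117 genes did. Cd48 was at -0.14 (-0.19 to -0.10), close to the median gene at -0.15, Slamf7 at -0.005 (-0.07 to 0.06), Sh2d1a at -0.03 (-0.09 to 0.04) and Sh2d1b1 at 0.12 (0.01 to 0.23). Ly9 at -0.27 (-0.36 to -0.18) and Slamf6 at -0.57 (-0.87 to -0.28) were the lowest. The difference between the log2 changes in lung and in blood was -0.59 (-0.68 to -0.49) for Slamf7, -0.46 (-0.53 to -0.40) for Cd48 and -0.32 (-0.45 to -0.19) for Ly9. It was 0.40 (0.25 to 0.55) for Sh2d1b1, 0.38 (0.28 to 0.47) for Sh2d1a and 0.48 (0.09 to 0.86) for Slamf6. At 6 h, these differences lay between -0.04 and 0.14.

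**Figure D2:**
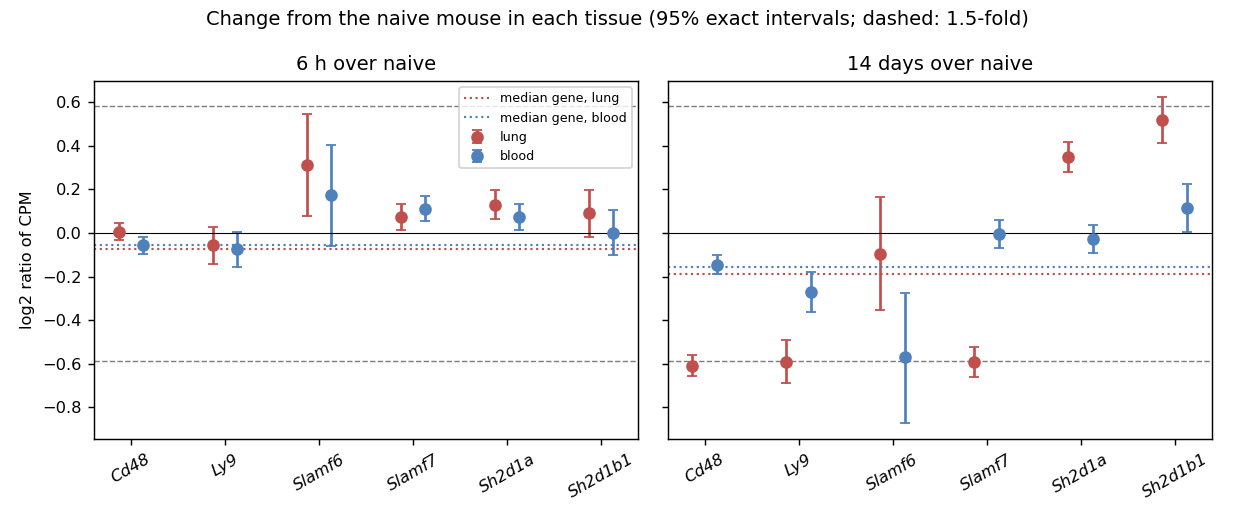
Log2 ratios of CPM over the naive mouse at 6 h (left) and 14 days (right) for 6 genes in lung (red) and blood (blue), with exact 95% intervals, the median gene of each tissue (dotted) and 1.5-fold (dashed). At 14 days Cd48, Ly9 and Slamf7 lie at -0.59 to -0.61 in lung, while Sh2d1a and Sh2d1b1 lie at 0.35 and 0.52.

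Lung and blood cells of 1 time point came from the same library, so the tissues can also be set against each other. These ratios share the lung values above. In the study, lungs were perfused, dissociated and digested with enzymes. Blood was drawn before perfusion, and only lysis of red cells is described for it. Tissue and cell preparation therefore cannot be told apart. In the naive mouse all 6 members tested had values lower in lung than in blood, from -0.22 (-0.46 to 0.03, Slamf6) to -0.54 (-0.61 to -0.48, Sh2d1a) on the log2 scale. The interval of Slamf6 included 0, and without cells with a Cd3 UMI its ratio was 0.09. None of the members passed 1.5-fold, where 10.4% of 8212 genes did. At 6 h the members lay between -0.08 (-0.295 to 0.14, Slamf6) and -0.49 (Sh2d1a) and none passed, where 9.51% of 8173 genes did. At 14 days, 3 of the 5 members tested passed, all lower in lung, namely Slamf7 at -0.82 (-0.89 to -0.75), Cd48 at -0.73 (-0.78 to -0.68) and Ly9 at -0.64 (-0.75 to -0.54). Among all 8103 genes, 3.96% passed in that direction and 9.71% in either. The median gene lay at -0.09, -0.10 and -0.11 at the 3 times, and relative to it Slamf7 and Cd48 still passed, as did 2.38% of all genes downwards. Sh2d1a was then at -0.17 (-0.23 to -0.10) and Sh2d1b1 at 0.14 (0.03 to 0.24).

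Ratios between members within a group do not depend on the scaling to a common total. UMIs of the 3 adaptors were counted per UMI of the 3 members that are receptors with a signalling tail (Ly9, Slamf6 and Slamf7). In naive lung, 2868 of the 4042 adaptor UMIs were of Sh2d1a and 3776 of the 5905 receptor UMIs of Slamf7. The ratio does not take into account which adaptor docks onto which receptor. The values were 0.684 (0.657 to 0.713) in naive lung and 0.720 (0.698 to 0.744) in 6 h lung, against 1.34 (1.29 to 1.39) in 14-day lung. In blood the values were 0.790 (0.766 to 0.815), 0.791 (0.763 to 0.819) and 0.858 (0.823 to 0.895). Naive and 6 h values thus stayed close in both tissues, and 14-day lung stood apart. These ratios use the counts already read above, so they summarise the changes and are not a further result. Adaptor UMIs per Cd48 UMI went from 0.488 (0.470 to 0.507) in naive to 0.983 (0.950 to 1.02) in 14-day lung, and from 0.561 to 0.625 in blood. SAP to EAT-2 shifted less, with 2.46 (2.30 to 2.64) Sh2d1a UMIs per Sh2d1b1 UMI in naive and 2.19 (2.08 to 2.31) in 14-day lung, and 2.99 and 2.71 in naive and 14-day blood. Because UMI counts of different genes are not molecules per cell on a common scale, only the shifts between groups are read here. Cd84 and Cd244a, receptors of the family that are not members, were left out, though they had 4006 and 7030 UMIs in naive lung.

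**Figure D3:**
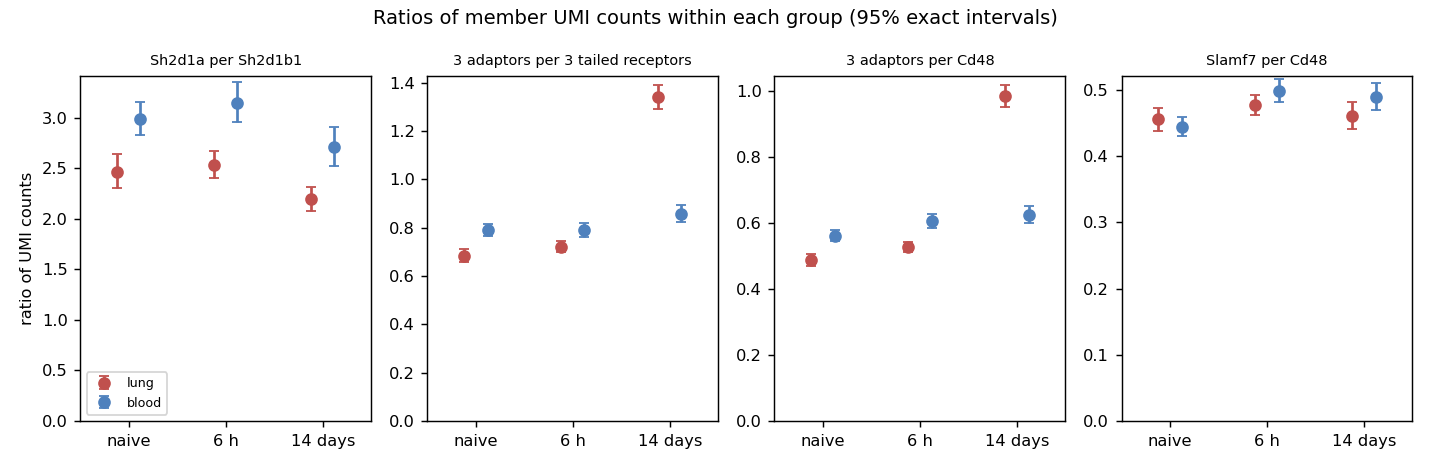
Ratios of summed UMI counts of members within each group (axes from 0), for lung (red) and blood (blue), with exact 95% intervals. The 3 adaptors per 3 tailed receptors of the members (Ly9, Slamf6 and Slamf7) reach 1.34 in 14-day lung and lie between 0.684 and 0.858 in the other 5 groups. Slamf7 per Cd48 lies between 0.445 and 0.499 throughout.

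NK cells mature from a CD27+ CD11b- to a CD27- CD11b+ stage, and Itgam encodes CD11b. Cells were therefore divided by a UMI of Cd27 and of Itgam after thinning, which gave 144 to 355 Cd27+ Itgam- cells and 950 to 2293 Cd27- Itgam+ cells per group. A cell without a UMI is not a cell without the protein, and 31.8% to 51.9% of cells had neither UMI. The share with neither was 38.4% in naive lung and 51.9% in 14-day lung, and that of Cd27- Itgam+ cells 49.8% and 35.6%.

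Slamf6 had higher levels in the immature than in the mature class. Its level in Cd27+ Itgam- cells was 29.7, 34.0 and 20.6 CPM in naive, 6 h and 14-day lung and 28.8, 36.1 and 25.6 CPM in blood, against 3.78 to 8.39 CPM in Cd27- Itgam+ cells. The log2 ratio between these classes ran from 2.02 (1.64 to 2.40) in 6 h lung to 2.76 (2.00 to 3.53) in 14-day blood. As Slamf6 reached 10 CPM in the immature but not the mature class, these ratios are a description and no call is read from them. Cells with a Cd3 UMI had more Slamf6, at 19.9 to 50.95 CPM, and their share moved with the group (4.43% in naive lung, 8.31% in 14-day blood). Without these cells, the ratio was 1.497 (1.04 to 1.94) in 6 h lung, 1.61 (0.37 to 2.73) in 14-day blood and 1.82 to 2.67 in the other 4 groups.

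Cd48 and Slamf7 leaned to the mature class. Cd48 was lower in Cd27+ Itgam- than in Cd27- Itgam+ cells in every group, from -0.29 (-0.45 to -0.15) in 14-day blood to -0.88 (-1.02 to -0.74) in 14-day lung on the log2 scale. That for Slamf7 lay between -0.20 (naive lung) and -0.60 (-0.81 to -0.39, 14-day lung). Both passed 1.5-fold in 14-day lung, where 7.6% of genes did so downwards, and neither did in the other 5 groups, where 4.37% (naive lung), 3.79% (6 h lung), 3.04% (naive blood), 5.66% (6 h blood) and 7.16% (14-day blood) did. These calls depended on the classes: when all UMIs of a cell set its class, Cd48 passed in naive blood (-0.59), 6 h blood (-0.75) and 14-day lung (-0.99), and Slamf7 in 14-day lung did not (-0.49). Sh2d1a was higher in the immature class in naive and 6 h cells, by 0.35 (0.21 to 0.49) to 0.52 (0.33 to 0.71), and at 14 days it was at 0.02 (-0.13 to 0.17) in lung and 0.08 (-0.13 to 0.28) in blood. Ly9 and Sh2d1b1 had ratios between -0.40 and 0.17, whose intervals included 0 in 10 of 12 cases. When all UMIs set the class, Ly9 lay between -0.31 and 0.17. Sh2d1b1 then lay between -0.09 (14-day blood) and -0.845 (6 h blood), and the latter was past 1.5-fold.

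Cd48 and Slamf7 were lower in 14-day than in naive lung in each of the 4 classes. Cd48 was at -0.83 (-1.01 to -0.65) in Cd27+ Itgam- cells, -0.51 (-0.76 to -0.26) in Cd27+ Itgam+ cells, -0.35 (-0.42 to -0.28) in Cd27- Itgam+ cells and -0.70 (-0.77 to -0.63) in cells with neither UMI, as log2 ratios of 14-day over naive lung. Slamf7 was at -0.86, -0.60, -0.47 and -0.62 in the same order, and Ly9 at -0.64, -0.35 (-0.85 to 0.14), -0.44 and -0.69. Sh2d1b1 was at 0.57, 0.41 (-0.11 to 0.93), 0.56 and 0.52. Sh2d1a had 160 CPM at both times in Cd27+ Itgam- cells (-0.0002, -0.22 to 0.22) and was at 0.39, 0.50 and 0.28 in the other 3 classes. In blood, Cd48 lay between -0.21 and 0.09 and Slamf7 between -0.15 and 0.09 across the classes. Other members had lower values in single classes of blood, namely Ly9 in Cd27- Itgam+ cells (-0.35, -0.48 to -0.22) and in cells with neither UMI (-0.23, -0.38 to -0.09), Sh2d1a in Cd27+ Itgam- cells (-0.33, -0.55 to -0.10) and Slamf6 in cells with neither UMI (-0.955, -1.43 to -0.50). In 6 h over naive lung, Slamf6 was at 0.79 (0.32 to 1.27) in Cd27- Itgam+ cells. It lay between -0.09 and 0.19 in the other 3 classes, with intervals that included 0.

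**Figure D4:**
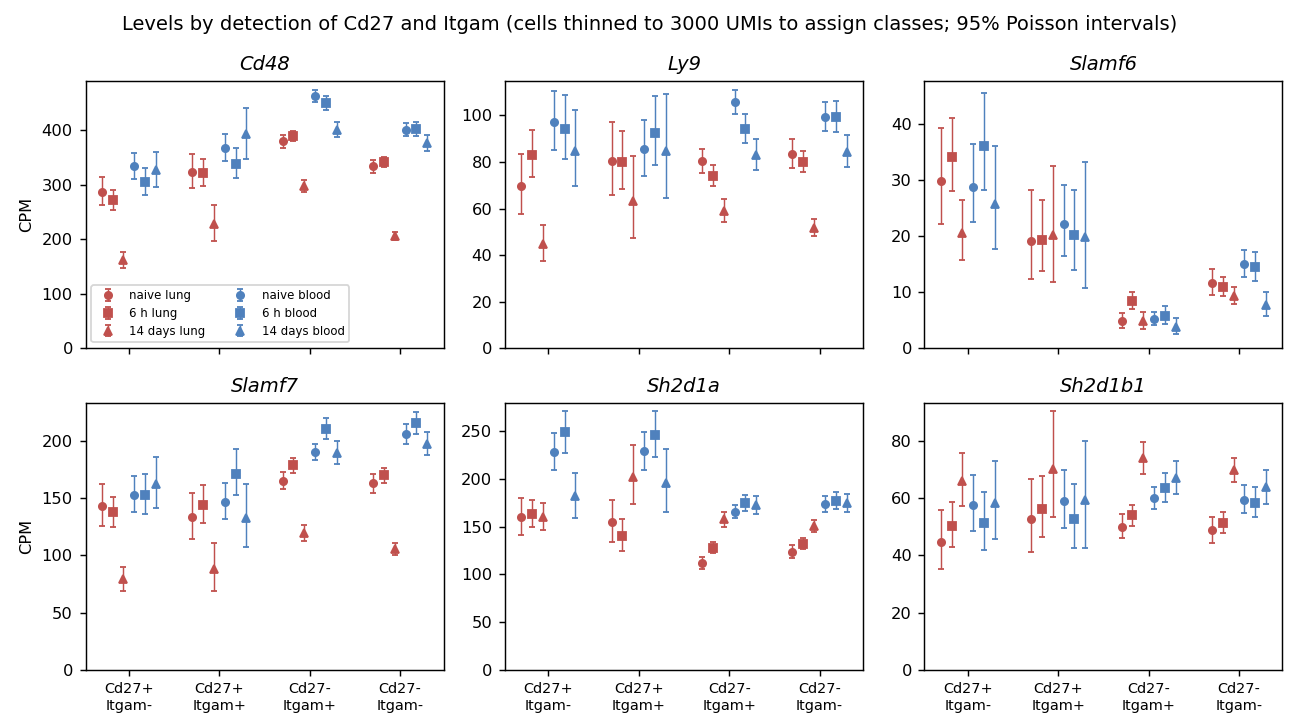
Levels (CPM, axes from 0) of 6 genes in 4 classes of cells, by detection of Cd27 and Itgam after thinning to 3000 UMIs, for naive (circles), 6 h (squares) and 14-day (triangles) lung (red) and blood (blue), with exact 95% Poisson intervals. Slamf6 is highest in Cd27+ Itgam- cells of every group (20.6 to 36.1 CPM), and the 14-day lung lies below the naive lung for Cd48 and Slamf7 in all 4 classes.

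Within the 14-day lung, Slamf7 and Cd48 were lower in cells with a UMI of Itga1 (the integrin subunit CD49a of tissue-resident cells) or of Pmepa1 (a gene known to be induced by TGF-β). After thinning, 1243 of the 14-day lung cells (35.1%) had such a UMI and 2294 did not, at a median of 7190 and 6953 UMIs per cell. Slamf7 was at 59.3 CPM in the former and 133.9 in the latter (log2 ratio -1.17, -1.30 to -1.05), and Cd48 at 159 and 273 CPM (-0.78, -0.86 to -0.70). Both passed 1.5-fold downwards, where 3.02% of 8025 genes did. Ly9 was at 44.0 and 59.3 CPM (-0.43, -0.59 to -0.27). Slamf6 went the other way, with 12.5 and 7.60 CPM (0.72, 0.36 to 1.08), but it reached 10 CPM only in the former, so no call is read from it. Sh2d1b1 had 84.3 and 63.1 CPM (0.42, 0.29 to 0.55), and Sh2d1a 171 and 147 CPM (0.22, 0.13 to 0.30). Only the 14-day lung was divided in this way, so whether such cells of the other groups differ alike was not tested.

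Cells with neither UMI had values nearer to those of the naive lung for Cd48, Ly9, Slamf7, Sh2d1a and Sh2d1b1, but not for Slamf6. Their log2 ratios over the undivided naive lung were -0.37 (-0.42 to -0.32) for Cd48, -0.45 (-0.56 to -0.34) for Ly9, -0.26 (-0.34 to -0.19) for Slamf7, 0.27 (0.19 to 0.34) for Sh2d1a and 0.35 (0.23 to 0.47) for Sh2d1b1. In cells with a UMI of either gene, the same ratios were -1.15, -0.88, -1.44, 0.48 and 0.77. Slamf6 was at -0.39 (-0.71 to -0.08) without and 0.32 (0.0003 to 0.64) with such a UMI, which together gave the small value for all cells.

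**Figure D5:**
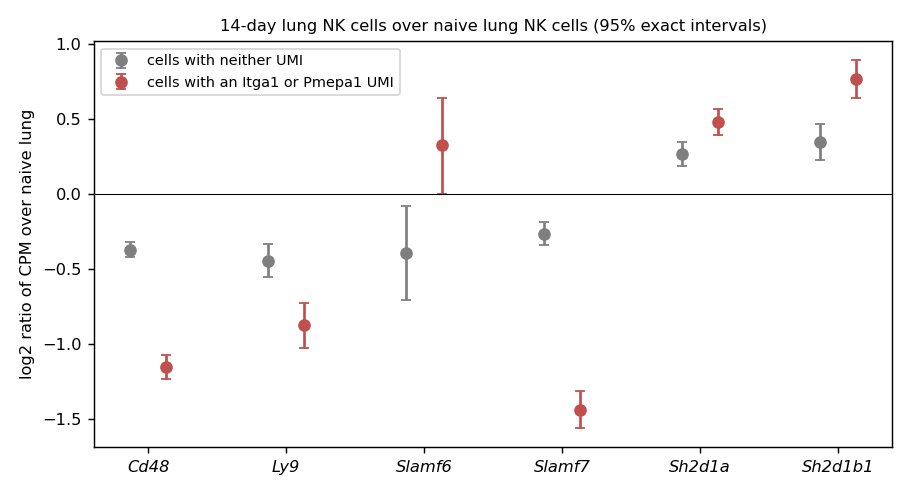
Log2 ratios of CPM in 14-day lung over the undivided naive lung for 6 genes, in 14-day cells with an Itga1 or Pmepa1 UMI (red) and with neither (grey), with exact 95% intervals. Slamf7 is at -1.44 in the former and -0.26 in the latter, and Slamf6 differs in sign, at 0.32 and -0.39.

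The other 5 receptors of the family held few further changes. Slamf1 had 1 to 15 UMIs per group, Slamf8 at most 3 and Slamf9 at most 5, so that only Cd84 and Cd244a could be compared. Cd244a, the receptor of Cd48 in NK cells, had 299.5, 276 and 234 CPM in naive, 6 h and 14-day lung and 457, 404 and 349 in blood. It was lower in lung by more than 1.5-fold in the naive mouse (-0.61, -0.65 to -0.57), as were 3.95% of 8212 genes. At 6 h and 14 days it lay at -0.55 and -0.58 and did not pass. Relative to the median gene it was at -0.52 in the naive mouse and did not pass either. Its log2 change from naive to 14 days was -0.36 in lung and -0.39 in blood, unlike that of its ligand. Cd84 had 142 to 171 CPM in lung and 197 to 232 CPM in blood. Cd2, which also binds Cd48, had 267, 246.5 and 196 CPM in lung and 290, 253 and 229.5 CPM in blood, and no ratio passed.

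Of 15 genes for kinases, phosphatases and effectors downstream of the receptors, 14 had enough counts. None passed 1.5-fold at 6 h in either tissue or at 14 days in blood. In 14-day over naive lung, 1 of 14 passed, Pik3r1, a regulatory subunit of phosphoinositide 3-kinase, which went from 951 to 453 CPM (-1.07, -1.10 to -1.04), beside 10.9% of all genes that passed downwards. The list's median was -0.22, against -0.19 for all genes. Relative to the median gene, 2 of its genes passed upwards (7.7% of all genes did), the adaptor gene Sh3bp2 (13.6 to 19.8 CPM) and Ptpn6, which encodes the phosphatase SHP-1 (79.3 to 117 CPM, -0.18 in blood) and was picked after its values were seen. Fyn, the kinase that SAP brings in, had 774 and 572 CPM in naive and 14-day lung (-0.44, -0.47 to -0.41). Between tissues, Vav1 (-0.71 and -0.62) and Sh3bp2 (-0.93 and -0.91) were lower and Pik3r1 (1.12 and 1.03) higher in lung in the naive mouse and at 6 h, when 10.4% and 9.51% of all genes passed in either direction. Relative to the median gene, Vav1 no longer passed at 6 h. At 14 days Plcg2 alone passed, at -0.64, beside 9.71% of all genes. Relative to the median gene it was at -0.54 and did not pass. On that scale Inpp5d at 0.65 and Ptpn6 at 0.64 passed upwards, as did 7.24% of all genes. Both of these genes were picked after their values were seen.

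Genes with the course most like each member were sought over 24 profiles (6 groups by 4 classes) among 3606 genes, by Pearson's correlation of log2(CPM + 1). The profiles share 3 libraries and are not independent, so the values are a description. Closest to Cd48 were Itgb2 (r = 0.969), Lgals1 (0.968) and Reep5 (0.965), and Slamf7 was followed by Ccnd2 (0.967) and Actb (0.938). Ly9 was matched best by Sema4a (0.932), Ywhab (0.926) and Anxa6 (0.911). Slamf6 was matched by Ccr2 (0.906), Thy1 (0.896) and Cmtm7 (0.843). For Sh2d1a the genes were Evl (0.939), Lax1 (0.886) and Tmem254 (0.859), and for Sh2d1b1 Padi2 (0.91), Clnk (0.901) and Coro2a (0.815). Sh2d1b2 reached no more than 0.623 (Trmt112, H2-T22 and Fundc2) at 0.639 CPM, too sparse to read. Among the members, Cd48, Ly9 and Slamf7 had correlations of 0.83 to 0.894 with each other, whereas Sh2d1a had 0.005 with Cd48 and 0.192 with Sh2d1b1.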

How the data were processed

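The authors deposited UMI counts per gene and hashtag for every barcode of 3 droplet libraries (10x Genomics 3′ v3.1), not normalized. The labels name Cell Ranger and GENCODE M23 on GRCm38.p6. Whether intronic reads were counted is not given in the sources used here. Barcodes with 800 to 5000 genes and at most 6% mitochondrial counts were kept, and a tissue was assigned from 90% of a cell's tag counts. Cells with both tags were left out, no doublet caller was run, and doublets within a tissue remain.

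The members and gene lists were chosen with earlier results of these data known. With 1 library per time point no test was made. Each ratio of CPM has an exact conditional interval, and the threshold was 1.5-fold for genes reaching 10 CPM in either group. Named genes are the members, listed genes past 1.5-fold in a comparison, and the 3 genes most correlated with each member (at least 50 CPM, and 50 cells per profile). Of these correlated genes, 1 is not reported here. Classes came from cells thinned to 3000 UMIs, which left out 6 to 86 cells per group, and their levels from all UMIs.

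Free RNA made up at most 6.65% (naive), 4.15% (6 h) and 1.05% (14 days) of counts, judged by other cell types' markers with 40 or more counts in barcodes of up to 100 UMIs. The minimum of 40 was lowered after the first outcome had been seen. A gene with 3 counts in the smallest group has 0.177 CPM. In counts simulated for lung at 14 days over naive (7891 genes), 95.8% of intervals held the true ratio. These counts were drawn with counting error alone, so they check the formula of the interval and not differences between mice or libraries. Alternatives changed the cell filter, tags, totals, centring, depth, free RNA, deep cells, Cd3 cells, class weights and minimum CPM. Python 3.11.15, numpy 2.4.6, scipy 1.17.1 and pandas 2.3.3 were used, with positions from GENCODE M21 (GRCm38) and promoters from RefSeq.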

Additional observations from a re-analysis of the deposited data

Results flagged for a closer look

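Sh2d1b1, the EAT-2 gene, was lower in lung than in blood of the naive mouse (log2 ratio -0.26) and higher in lung at 14 days (0.14), a difference of 0.40 between the time points (0.25 to 0.55, counting error only). It drew attention because the tissues stood in opposite order at the 2 times. With 1 library per time point the difference was not tested. The order at 14 days was the same under each alternative, with ratios of 0.06 to 0.24.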

How the results depend on the processing

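No paired analysis was possible because each group holds 1 sample per tissue and no test was made, and no replicate could be left out. The lung result at 14 days rests on ratios near the threshold. The count of members past 1.5-fold was 3 and became 1 with 1000 to 4000 genes and at most 5% mitochondrial counts, with totals without mitochondrial and ribosomal protein genes, with cells thinned to 3000 UMIs, without the 5% of cells with the most UMIs, without cells with a Cd3 UMI, with the Cd27 and Itgam classes weighted equally and with ratios centred on the median gene. The log2 ratios of the 3 receptors nevertheless lay between -0.40 and -0.62 under each alternative, and those of Sh2d1a and Sh2d1b1 between 0.29 and 0.71. Without mitochondrial and ribosomal protein genes, Cd48 was at -0.43, Slamf7 and Ly9 at -0.42, and the 1 member past the threshold was Sh2d1b1 at 0.69. In 14-day blood the count rose from 0 to 1 (Slamf6) with 1000 to 4000 genes (-0.71) and with free RNA subtracted (-0.60). With no minimum CPM it rose to 1 (Sh2d1b2) in 6 h blood over naive and in naive lung over blood. Sh2d1b2 was then also past 1.5-fold in 14-day over naive lung, upwards at 1.22. With equal class weights the count rose to 1 (Sh2d1a, -0.59) in 6 h lung over blood. Leaving out cells with a Lyz2 or Hbb-bs UMI, chosen after seeing the data, changed no count. The 6 ratios past the threshold as reported (Cd48, Ly9 and Slamf7 in 14-day over naive lung and in 14-day lung over blood) changed sign under no alternative. Slamf6 with 132 to 444 UMIs and Sh2d1b2 with 10 to 28 UMIs per group are limited by depth.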
